A study of Mus musculus with 8 samples.

Results

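The 8 genes described here are the paired forms of 4 subunits of cytochrome c oxidase: Cox6a2 and Cox6a1, Cox7a1 and Cox7a2, Cox8b and Cox8a, and Cox4i2 and Cox4i1, the tissue-limited form named first in each. They were taken by symbol from a table of read counts with 23420 gene lines, and all 8 were found there. Cytochrome c oxidase, complex IV of the respiratory chain, passes electrons from cytochrome c to oxygen and pumps protons across the inner mitochondrial membrane. Its catalytic core is encoded in mitochondrial DNA, and the nuclear-encoded subunits around that core tune and stabilise it. Several of these nuclear subunits exist in paired forms, a ubiquitous form and a form limited to some tissues, and in developing heart and skeletal muscle the muscle forms take up a growing share of their pairs. Cox6a2, Cox7a1 and Cox8b are the muscle forms, whereas Cox4i2 is best known from lung and from its response to oxygen and is not a muscle form.

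RNA was taken from C2C12 cells, mouse myoblasts that form myotubes when serum is withdrawn. All cells were grown with 10% FBS (fetal bovine serum), and RNA was taken 48 h after a change to medium with 2% horse serum. AUF1 is an RNA-binding protein that recognises AU-rich elements and is encoded by Hnrnpd. The 4 groups were AUF1-overexpressing cells in total RNA, WT cells in total RNA, AUF1-overexpressing cells in heavy polysome RNA (mRNA carrying many ribosomes) and WT cells in heavy polysome RNA, with 2 libraries each. The sources used here do not give the promoter of the AUF1 construct, whether the cells are a clone or a pool, or whether an empty vector is present in WT cells. Nor do they say that both libraries of a group stem from separate cultures, so each p-value measures no more than how these libraries scatter, and that scatter may be technical.

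Libraries held 25281224 to 34917660 counts in genes. Hnrnpd stood at 448 and 397 CPM (counts scaled to library size with TMM factors) in AUF1 total RNA, against 64.2 and 99.6 CPM in WT total RNA, and at 549 and 427 CPM in AUF1 polysomes, against 106 and 131 CPM in WT polysomes. All 10 myoblast and myotube markers had counts in every library. Their summed level was 20724 to 25735 CPM in AUF1 total RNA, against 4160 to 4813 CPM in WT total RNA, and 18334 to 21302 CPM in AUF1 polysomes, against 3555 to 5203 CPM in WT polysomes. The replicate number also split the libraries: the first principal component of log2 CPM (44.6% of the variance) parted replicate 1 from replicate 2, and the second (37.1%) parted AUF1 from WT. Changes within each replicate number, and the fit with that number as a block, are therefore given beside results whose call they alter. In bulk RNA, fewer cells of a type and less RNA per cell cannot be told apart.

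All 8 genes were placed on mm10 (GRCm38) with the GENCODE M21 annotation. The muscle forms Cox6a2 (chr7:128205435-128206387), Cox7a1 (chr7:30184144-30186078) and Cox8b (chr7:140898945-140900446) all lie on chromosome 7. Their partners lie elsewhere, Cox6a1 at chr5:115345642-115348981, Cox7a2 at chr9:79755361-79759878 and Cox8a at chr19:7215153-7217616, as do Cox4i2 at chr2:152754173-152765037 and Cox4i1 at chr8:120668222-120674207. The coding sequences of a pair were 56.3% identical for subunit 6A, 60.6% for 7A, 53.4% for 8 and 62.9% for 4 by global alignment, and no run of 50 bases was shared within any pair. Sharing with other genes was read from 1 coding transcript per gene, that with the longest coding sequence. Of the 50-base runs of Cox4i1, 14.7% were also found in Emc8, which lies on the opposite strand and overlaps it over 154 exonic bases. For Cox6a1, 12.3% were also found in the unnamed gene model AC148174.2, and for Cox6a2, 3.3% in Itgad, which overlaps it over 70 exonic bases on the opposite strand. Itgad itself had 1 count over all 8 libraries, and Cox6a1 had no annotated overlap with AC148174.2. The sources used here do not give the strand setting of the counting, which bears on the overlaps of Cox4i1 and Cox6a2. The counts of these 3 genes are thus less certain than those of Cox7a1, Cox7a2, Cox8b, Cox8a and Cox4i2, which shared none.

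Promoters from 250 bases before to 50 bases after the start were at hand from RefSeq (GRCm38.p6) for 5 of the 8 genes, namely Cox8b, Cox8a, Cox7a1, Cox7a2 and Cox6a1. They were searched on both strands for CAGCTG (an E-box of the kind bound by myogenic factors), the MEF2 core, the oestrogen-related receptor site TCAAGGTCA and the palindromic NRF1 site, none of which overlapped another in these windows. The muscle-form promoters of Cox8b and Cox7a1 and the ubiquitous promoter of Cox6a1 are shown, since the first and the last held matches and the other is a muscle form without any. Capitals mark CAGCTG in Cox8b (chr7:140900397-140900696, minus strand) and the NRF1 site in Cox6a1 (chr5:115348909-115349208, minus strand). Cox7a1 (chr7:30183921-30184220, plus strand) has no capitals.
Cox8b promoter: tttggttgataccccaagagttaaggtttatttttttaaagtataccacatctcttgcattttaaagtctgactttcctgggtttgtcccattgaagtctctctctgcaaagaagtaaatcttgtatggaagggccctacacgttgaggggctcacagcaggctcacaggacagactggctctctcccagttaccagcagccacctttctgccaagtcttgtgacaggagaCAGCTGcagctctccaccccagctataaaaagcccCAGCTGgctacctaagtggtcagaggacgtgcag
Cox7a1 promoter: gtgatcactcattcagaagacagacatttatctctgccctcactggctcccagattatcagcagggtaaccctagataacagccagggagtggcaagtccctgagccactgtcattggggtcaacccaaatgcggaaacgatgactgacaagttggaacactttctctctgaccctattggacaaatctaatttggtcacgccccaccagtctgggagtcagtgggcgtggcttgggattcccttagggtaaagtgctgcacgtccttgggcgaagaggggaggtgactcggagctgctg
Cox6a1 promoter: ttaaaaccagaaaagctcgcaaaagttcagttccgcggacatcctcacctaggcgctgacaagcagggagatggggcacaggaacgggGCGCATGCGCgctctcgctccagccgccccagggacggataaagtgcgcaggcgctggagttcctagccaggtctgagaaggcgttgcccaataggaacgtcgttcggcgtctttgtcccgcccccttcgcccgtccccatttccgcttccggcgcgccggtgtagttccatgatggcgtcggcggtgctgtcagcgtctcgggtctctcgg

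The Cox8b promoter held 2 E-boxes, with first bases 19 bases before and 16 bases after the start, a feature that 16.3% of 32851 promoters had at least once. The Cox6a1 promoter held 1 NRF1 site, 162 bases before the start, as did 0.971% of promoters. The promoters of Cox7a1, Cox7a2 and Cox8a held none of the 4 motifs, where the MEF2 core occurred in 3.69% and the oestrogen-related receptor site in 0.423% of all promoters. These are matches of letters in a window and say nothing of binding.

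Because AUF1 recognises AU-rich elements, the 3' untranslated regions were searched for the pentamer ATTTA. For each gene 1 coding transcript was used, that with the longest coding sequence and then the greatest length. Further coding transcripts, which Cox7a1, Cox4i2 and Cox4i1 have, were not searched. These regions were short, from 43 bases in Cox8b to 294 bases in Cox6a2. Cox6a2, Cox7a2 and Cox8a each held 1 ATTTA, shown here in capitals in its 29-base surrounding, and the other 5 held none.
Cox6a2 site: tattttttaaaaATTTAtacaagcaatac
Cox7a2 site: ttggggatcaatATTTAttgatgtgtatt
Cox8a site: acaataaagtctATTTAaaccttgctcca
Of 4825 coding genes with a 3' untranslated region of 43 to 294 bases, 20.8% held the pentamer, against 58.7% of all 21674 coding genes searched. Of the 3 muscle forms, whose levels differed most between AUF1 and WT cells, 1 held it, and of the 4 ubiquitous forms 2 did.

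The comparison of AUF1 with WT cells asked how overexpression bore on the level of each form. The CPM of the 3 muscle forms was several times higher in AUF1 cells in both RNA fractions, with no AUF1 library below any WT library, while none of the 4 ubiquitous forms passed the test in either fraction. In edgeR without a block, Cox8b rose in total RNA. With the replicate number as a block, or with DESeq2, all 3 muscle forms rose in both fractions. Cox4i2 was at the limit of detection throughout.

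Cox8b, the muscle form of the small, membrane-spanning subunit 8 and a gene whose human counterpart is no longer functional, stood at 32.0 and 20.8 CPM in replicates 1 and 2 of AUF1 total RNA, against 2.35 and 2.60 CPM in WT total RNA. On polysomes it stood at 16.2 and 24.8 CPM in AUF1 cells and 2.02 and 3.49 CPM in WT cells. Even the lowest AUF1 library was several times above the highest WT library. Total RNA averaged 26.4 ± 7.95 CPM in AUF1 and 2.47 ± 0.18 CPM in WT cells, and polysomes 20.5 ± 6.07 and 2.75 ± 1.04 CPM in AUF1 and WT cells (SD, n = 2 each). For total RNA edgeR gave a log2 fold change of 3.41 ± 0.45 (SE; adjusted p = 0.041, or 0.0501 when DESeq2's size factors replaced TMM scaling). For polysomes it gave 2.90 ± 0.44 (adjusted p = 0.0589, or 0.00146 with the block and 0.0488 without the low-count filter). Within replicate numbers 1 and 2 the log2 change was 3.77 and 2.999 in total RNA and 3.01 and 2.83 on polysomes.

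Cox6a2, the heart and skeletal muscle form of subunit 6A, which sits at the dimer interface and takes part in regulation by adenine nucleotides, stood at 45.5 and 54.0 CPM in AUF1 total RNA, against 7.13 and 6.92 CPM in WT total RNA. On polysomes it stood at 32.0 and 70.3 CPM in AUF1 cells, against 5.74 and 10.5 CPM in WT cells. The groups did not overlap in either fraction, and on polysomes replicate 2 was higher than replicate 1 in both genotypes. For total RNA edgeR gave a log2 fold change of 2.82 ± 0.50 (SE; adjusted p = 0.0672, or 0.000866 with the block), and for polysomes 2.66 ± 0.49 (adjusted p = 0.0853, or 0.00126 with the block). Within replicate numbers 1 and 2 it was 2.68 and 2.96 in total RNA and 2.48 and 2.75 on polysomes.

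Cox7a1, the muscle form of subunit 7A, was the least abundant of the 3. It stood at 10.5 and 11.03 CPM in AUF1 total RNA, against 3.12 and 2.18 CPM in WT total RNA, and at 7.24 and 11.4 CPM in AUF1 polysomes, against 2.13 and 2.38 CPM in WT polysomes. Here too every AUF1 library lay above every WT library of its fraction. For total RNA edgeR gave a log2 fold change of 2.02 ± 0.38 (SE; adjusted p = 0.0803, or 0.00554 with the block), and for polysomes 2.04 ± 0.38 (adjusted p = 0.0837, or 0.00541 with the block). Within replicate numbers 1 and 2 it was 1.75 and 2.34 in total RNA and 1.77 and 2.26 on polysomes.

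**Figure D1:**
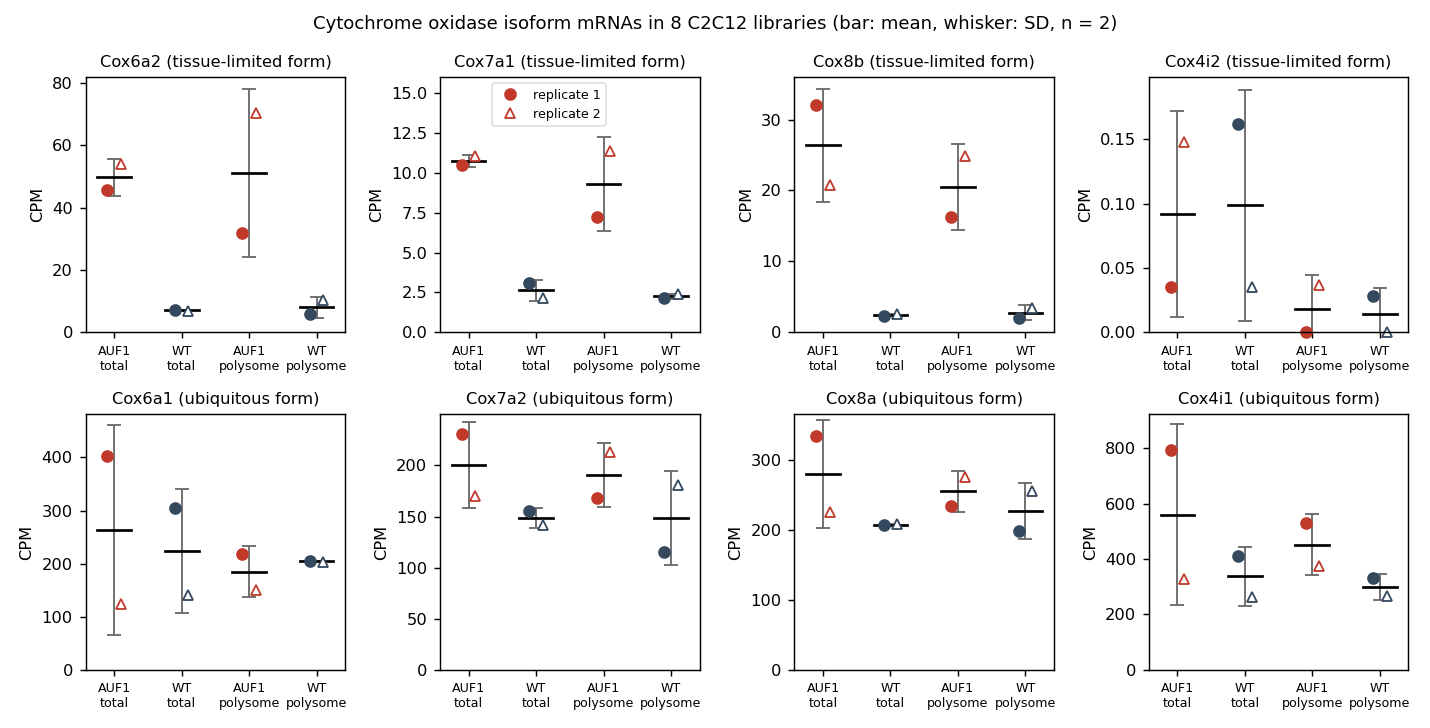
CPM of each of the 8 genes in the 8 libraries, limited forms above and ubiquitous forms below, with replicate 1 as filled circles and replicate 2 as open triangles. Horizontal bars are group means and whiskers are SD (n = 2); the 3 muscle forms are separated by genotype, while replicates spread widely for Cox6a1 and Cox4i1.

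The ubiquitous forms were far more abundant and less separated. Cox6a1 stood at 403 and 123 CPM in AUF1 total RNA, against 306 and 141 CPM in WT total RNA, and at 218 and 150.3 CPM in AUF1 polysomes, against 205 and 204 CPM in WT polysomes. Its groups overlapped, and replicate 1 of total RNA was 3.27 times replicate 2 in AUF1 cells and 2.17 times in WT cells. By edgeR its log2 fold change came to 0.24 ± 0.61 (SE) in total RNA (adjusted p = 0.94) and −0.15 ± 0.61 on polysomes (adjusted p = 0.987). Cox4i1, the ubiquitous form of the largest nuclear-encoded subunit, stood at 794 and 329 CPM in AUF1 total RNA, against 412 and 263 CPM in WT total RNA, and at 530 and 375 CPM in AUF1 polysomes, against 333 and 267 CPM in WT polysomes. It had the same split, replicate 1 of total RNA standing at 2.41 times replicate 2 in AUF1 cells and 1.57 times in WT cells, and its groups overlapped in total RNA but not on polysomes. The edgeR log2 fold change was 0.73 ± 0.48 (SE, adjusted p = 0.589) in total RNA and 0.59 ± 0.47 (adjusted p = 0.703) on polysomes.

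Cox7a2, the ubiquitous form of 7A, stood at 230.4 and 170.4 CPM in AUF1 total RNA, against 156 and 142 CPM in WT total RNA, and at 169 and 213 CPM in AUF1 polysomes, against 116 and 181 CPM in WT polysomes. Cox8a, the ubiquitous form of 8, stood at 334 and 225 CPM in AUF1 total RNA, against 207 and 208 CPM in WT total RNA, and at 234 and 275 CPM in AUF1 polysomes, against 198 and 255 CPM in WT polysomes. In both genes the AUF1 libraries lay above the WT libraries in total RNA, while on polysomes the groups overlapped. The edgeR log2 fold changes in total RNA were 0.43 ± 0.32 (SE, adjusted p = 0.648) for Cox7a2 and 0.43 ± 0.29 (adjusted p = 0.599) for Cox8a. On polysomes they were 0.36 ± 0.32 (adjusted p = 0.735) for Cox7a2 and 0.17 ± 0.29 (adjusted p = 0.926) for Cox8a. These intervals do not show that the forms stayed at the same level.

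Cox4i2 had 1 and 4 counts in AUF1 total RNA, against 4 and 1 in WT total RNA, and 0 and 1 in AUF1 polysomes, against 1 and 0 in WT polysomes. A floor of 3 counts corresponds to 0.0852 to 0.122 CPM in these libraries. Cox4i2 did not pass the low-count filter, and no fold change is given for it. Of the counts of the subunit 4 pair in AUF1 polysome replicate 1, 0 of 17046 were Cox4i2, which allows a share of up to 0.0176% by 3 counts, and in WT polysome replicate 2, 0 of 8423 were, which allows up to 0.0356%.

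In total RNA the edgeR fit without a block called 1 of the 7 tested forms, Cox8b, where it called 1.02% of 13167 genes (0.82% as higher in AUF1 cells). On polysomes it called 0 of the 7, where it called 0.349% of genes (0.281% as higher). With the block it called the 3 muscle forms as higher in each fraction, where it called 6.99% of genes as higher in total RNA and 6.7% on polysomes. DESeq2 also called these 3 in each fraction, where it called 3.97% of genes as higher in total RNA and 3.65% on polysomes. The CPM of both AUF1 libraries exceeded both WT libraries for 5 of the 7 in total RNA (the 3 muscle forms, Cox7a2 and Cox8a), where this held for 22.5% of genes, and for 4 of the 7 on polysomes (the 3 muscle forms and Cox4i1), where it held for 23.6%. Without any single library, the fit without a block called 0 forms and 0 genes in either fraction. With the block, leaving out 1 library called 3 forms on polysomes each time and 2 to 5 in total RNA: 2 without WT total replicate 2 (Cox6a2 and Cox8b), 5 without AUF1 total replicate 2 (the muscle forms, Cox8a and Cox4i1) and 3 without any of the other 6 libraries.

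**Figure D2:**
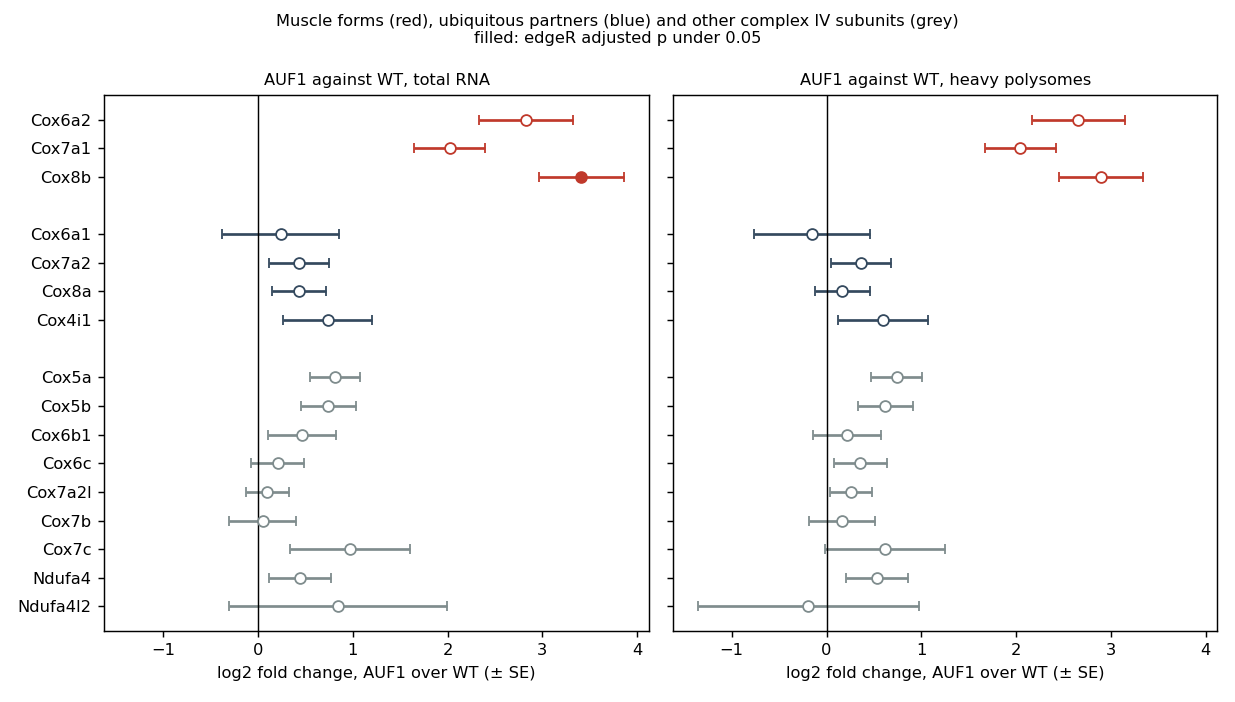
Log2 fold changes of AUF1 over WT (± SE) in total RNA and on heavy polysomes from edgeR without a block, for the muscle forms (red), their ubiquitous partners (blue) and the other tested complex IV subunits (grey). The muscle forms lie between 2.02 and 3.41 and the other subunits below 1, and only Cox8b in total RNA is filled (adjusted p under 0.05).

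The next question was how far each pair shifted towards its muscle form. Levels were divided by exon length (CPM per kb), and the muscle form was expressed as a share of the pair, with exact (Clopper-Pearson) intervals at 95% that cover counting error only. Within subunit 8, Cox8b made up 14.2% and 13.7% of the pair in AUF1 total RNA (replicates 1 and 2), against 1.92% and 2.11% in WT total RNA, and 10.6% and 13.4% in AUF1 polysomes, against 1.72% and 2.30% in WT polysomes. The intervals ran from 12.7% to 15.01% over both libraries of AUF1 total RNA and from 1.46% to 2.63% over those of WT total RNA. Replicates of this pair were close, at 13.9% ± 0.34 in AUF1 and 2.01% ± 0.13 in WT total RNA (SD, n = 2 each). On polysomes the share averaged 12.02% ± 1.97 in AUF1 and 2.01% ± 0.41 in WT cells (SD, n = 2 each).

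Within subunit 6A, Cox6a2 made up 10.4% and 31.2% of the pair in AUF1 total RNA, against 2.35% and 4.84% in WT total RNA, and 13.1% and 32.6% in AUF1 polysomes, against 2.80% and 5.04% in WT polysomes. Replicate 2 had the larger share in every group, and the lowest AUF1 share still exceeded the highest WT share. In total RNA most of this spread between replicates came with Cox6a1 and not with Cox6a2, whose CPM differed little between them. Within subunit 7A, Cox7a1 made up 7.42% and 10.3% of the pair in AUF1 total RNA, against 3.42% and 2.64% in WT total RNA, and 7.05% and 8.63% in AUF1 polysomes, against 3.15% and 2.27% in WT polysomes. Again the groups did not overlap.

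The ratio of muscle to ubiquitous form, taken as log2 of CPM per kb with 0.01 added, was 2.98 higher in AUF1 than in WT total RNA for subunit 8 (a 7.87-fold ratio), 2.71 for 6A (6.56-fold) and 1.63 for 7A (3.09-fold). On polysomes the differences were 2.74, 2.79 and 1.62. Within replicate numbers 1 and 2 they were 3.08 and 2.88 for subunit 8 in total RNA, 2.27 and 3.15 for 6A, and 1.18 and 2.07 for 7A. The order of 8 and 6A thus differed between the replicate numbers, while 7A was smallest in both. The exact two-sided permutation p was 0.333 for each of these 6 differences, the smallest that 2 against 2 libraries allow, and 8 pair comparisons were made in all. For Cox4i2 and Cox4i1 the difference was −0.70 in total RNA and −0.43 on polysomes (exact permutation p = 1 in both), values that rest on 0 to 4 counts of Cox4i2.

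**Figure D3:**
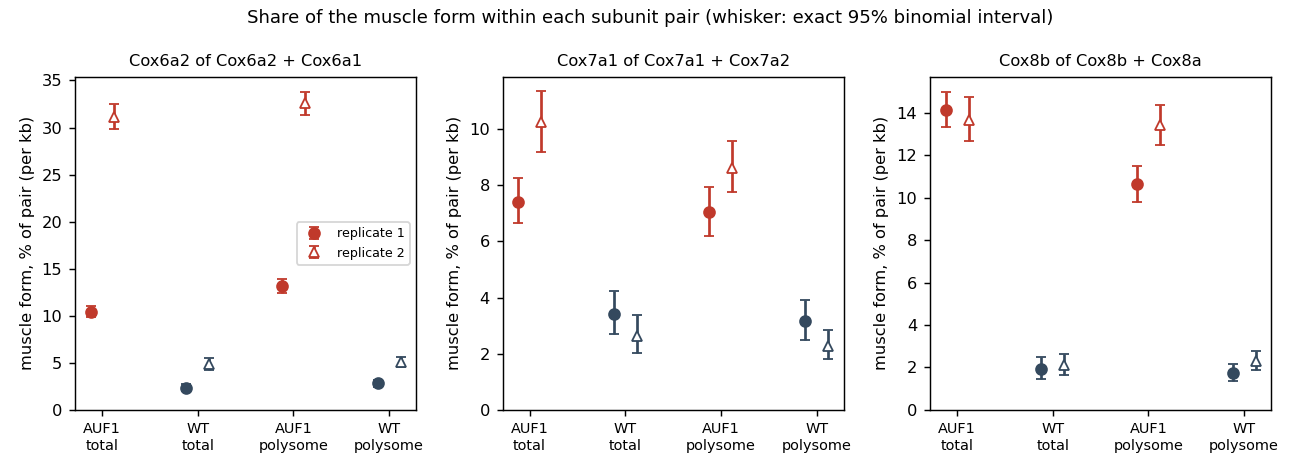
Share of the muscle form in the summed length-corrected level of its pair, in % for each library (filled circles, replicate 1; open triangles, replicate 2), with whiskers giving exact 95% binomial intervals. AUF1 libraries lie above WT libraries in all 3 pairs, and within 6A replicate 2 lies above replicate 1 in every group.

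The muscle form remained the smaller part of its pair in all libraries, 32.6% at most (Cox6a2 in AUF1 polysome replicate 2). Shares and sums depend on the length used. By coding transcript length that share was 28.2%, and Cox7a2 averaged 304 instead of 212 CPM per kb in AUF1 total RNA. The summed level of both forms was 628 and 422 CPM per kb for subunit 8 in AUF1 total RNA, against 340.4 and 343 CPM per kb in WT total RNA, and 264 and 201 CPM per kb for 7A, against 171 and 154 CPM per kb. These sums did not overlap between genotypes. For 6A the sums were 641 and 255 CPM per kb in AUF1 total RNA, against 446 and 210.4 CPM per kb in WT total RNA, which overlapped. On polysomes the sums averaged 469 ± 63.5 in AUF1 and 374 ± 68.2 CPM per kb in WT cells for subunit 8, 219 ± 38.6 and 161 ± 49.1 CPM per kb in AUF1 and WT cells for 7A, and 338 ± 28.8 and 303 ± 3.38 CPM per kb for 6A (SD, n = 2 each). Between genotypes the polysome sums overlapped for 7A, at 192 and 247 CPM per kb in AUF1 cells, against 127 and 196 in WT cells. Those of 6A and 8 did not overlap. For 8, the lower AUF1 library stood at 424 CPM per kb and the higher WT library at 422. No test was run on the sums.

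Ordered by CPM per kb, Cox8a, Cox6a1, Cox4i1 and Cox7a2 filled the first 4 places in every group, the muscle forms the next 3 and Cox4i2 the last. In AUF1 total RNA the means were 452 for Cox8a, 375 for Cox6a1, 362 for Cox4i1, 212 for Cox7a2, 73.3 for Cox8b, 73.2 for Cox6a2 and 20.1 for Cox7a1. Cox8a overlapped with Cox6a1, Cox6a1 with Cox4i1, Cox4i1 with Cox7a2, and Cox8b with Cox6a2. The steps to Cox8b, to Cox7a1 and to Cox4i2 were larger than the spread between the 2 libraries. In WT total RNA the means were 335 for Cox8a, 318 for Cox6a1, 218 for Cox4i1, 157 for Cox7a2, 10.3 for Cox6a2, 6.87 for Cox8b and 4.95 for Cox7a1. There Cox8a overlapped with Cox6a1 and Cox6a1 with Cox4i1, while Cox4i1 did not overlap with Cox7a2, nor did any later neighbours overlap. On polysomes the means were 412 for Cox8a, 292 for Cox4i1, 263 for Cox6a1, 202 for Cox7a2, 75.2 for Cox6a2, 57.0 for Cox8b and 17.4 for Cox7a1 in AUF1 cells. In WT polysomes they were 366 for Cox8a, 291 for Cox6a1, 194 for Cox4i1, 157 for Cox7a2, 11.9 for Cox6a2, 7.65 for Cox8b and 4.22 for Cox7a1, and Cox6a2 overlapped with Cox8b in both genotypes. The exons of Cox4i1 span 1550 bases, while its coding transcripts average 662 bases, and by coding transcript length it came first in all 4 groups.

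The comparison of heavy polysomes with total RNA asked whether the forms differed in loading. In neither genotype did any of the 7 tested forms pass edgeR's test, without or with the block, where the fit without a block called 0% of 13167 genes (438 in AUF1 and 364 in WT cells at an unadjusted p under 0.05) and the block 0.0152%. DESeq2 called 26 genes (0.197%) in AUF1 and 29 (0.22%) in WT cells, with 0 of the forms. In AUF1 cells the log2 changes of polysomes over total RNA ran from −0.51 ± 0.61 for Cox6a1 to 0.04 ± 0.46 for Cox6a2, and in WT cells from −0.23 ± 0.37 for Cox7a1 to 0.21 ± 0.47 for Cox6a2 (SE). The interaction, the AUF1 change on polysomes minus that in total RNA, ran from −0.52 ± 0.58 for Cox8b to 0.02 ± 0.51 for Cox7a1, with an adjusted p of 1 for each form. For the interaction edgeR called 0% of genes without the block (16 genes at an unadjusted p under 0.05) and 0% with it (49 genes), and DESeq2 also called 0.

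Within a replicate number the forms did not scatter around 0. In replicate 1 all 7 were lower on polysomes than in total RNA in both genotypes, with log2 changes from −0.98 (Cox8b) to −0.45 (Cox7a2) in AUF1 cells and from −0.57 (Cox6a1) to −0.06 (Cox8a) in WT cells. In replicate 2 all 7 were higher on polysomes, from 0.05 (Cox7a1) to 0.38 (Cox6a2) in AUF1 cells and from 0.02 (Cox4i1) to 0.60 (Cox6a2) in WT cells. Over all tested genes the medians were −0.12 and 0.03 in AUF1 replicates 1 and 2 and 0.00 and 0.01 in WT replicates 1 and 2, with 44.2%, 52.2%, 50.3% and 50.6% of genes above 0. The opposite signs in the 2 replicate numbers give the small pooled changes above. What the replicate numbers share was not stated, and its part in this pattern was not tested.

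**Figure D4:**
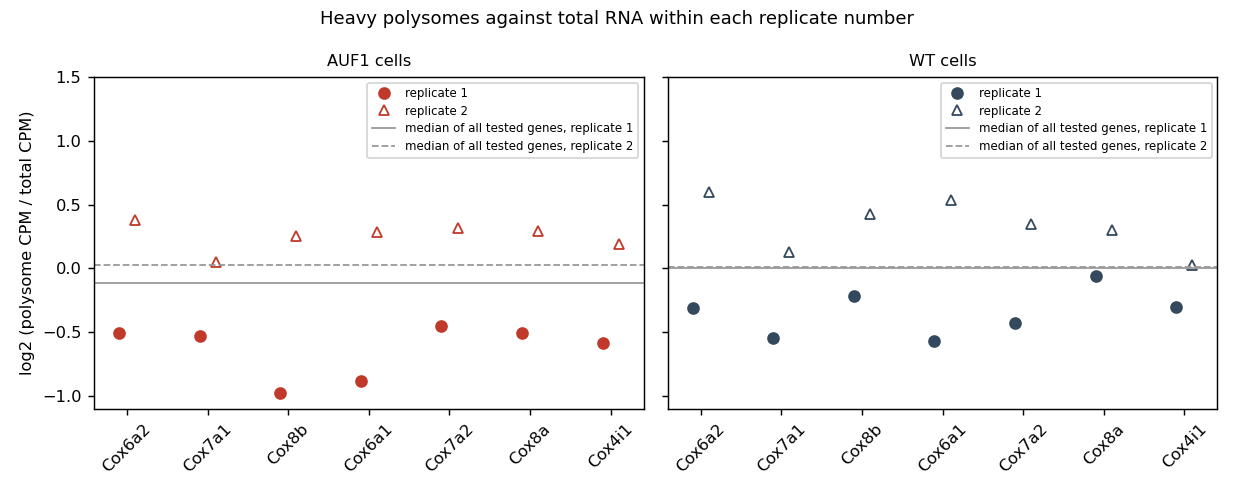
Log2 of polysome over total CPM within each replicate number for the 7 tested forms in AUF1 cells (left) and WT cells (right), with lines at the median of all tested genes. Filled circles (replicate 1) lie below 0 and open triangles (replicate 2) above 0 for every form in both genotypes.

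No other tested subunit of complex IV passed the test. Of 12 other nuclear-encoded subunits, 9 passed the low-count filter (Cox6b2, Cox7b2 and Cox8c did not), and edgeR called 0 in either fraction, without or with the block. Their edgeR log2 fold changes had a median of 0.47 in total RNA, with 9 of 9 above 0, and 0.36 on polysomes, with 8 of 9 above 0, beside a median of 0.00 over all tested genes in both fractions, of which 50.2% were above 0 in total RNA and 50.1% on polysomes. Both AUF1 libraries exceeded both WT libraries for 6 of the 9 in total RNA and 4 of the 9 on polysomes. This held for 22.5% and 23.6% of all tested genes. The reverse held for 0 of the 9 in either fraction. The 4 with the smallest p in total RNA were Cox5a and Cox5b at 0.81 ± 0.27 and 0.74 ± 0.29, Cox7c at 0.97 ± 0.63 and Ndufa4 at 0.44 ± 0.33 (SE), with adjusted p from 0.247 to 0.647. On polysomes they were Cox5a at 0.74 ± 0.27, Cox5b at 0.62 ± 0.29, Ndufa4 at 0.53 ± 0.33 and Cox6c at 0.36 ± 0.28 (SE), with adjusted p from 0.287 to 0.699. Cox7c was listed at only 8 to 34 counts, and 53% of its 50-base runs were also found in other annotated genes. So were 32% of those of Cox5a, 25.9% of those of Cox5b and 13.9% of those of Cox6c. The counts of these 4 genes are thus uncertain.

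Of 26 assembly factors of complex IV, 25 were tested. Without the block 0 were called. With it 1 of the 25 was called as higher in each fraction, where the block called 6.99% of all genes as higher in total RNA and 6.7% on polysomes, so nothing is read from that count. It was Cox17, which delivers copper to the enzyme. Cox17 stood at 168 and 229.9 CPM in AUF1 total RNA, against 92.4 and 120.2 CPM in WT total RNA, and at 96.5 and 162 CPM in AUF1 polysomes, against 53.1 and 72.0 CPM in WT polysomes. With the block its log2 fold change came to 0.90 ± 0.21 (SE, edgeR adjusted p = 0.0239) in total RNA and 1.02 ± 0.21 (adjusted p = 0.0139) on polysomes. Without the block, the 4 with the smallest p in both fractions were Cox17, Cox15 (haem A synthesis), Sco1 (copper delivery) and Coa7, with log2 fold changes from 0.64 to 0.90 in total RNA and from 0.64 to 1.05 on polysomes, and adjusted p from 0.240 to 0.368. The 25 factors had a median of 0.22 in total RNA, with 21 above 0, and 0.25 on polysomes, with 20 above 0. Both AUF1 libraries exceeded both WT libraries for 9 of the 25 in total RNA and 7 on polysomes. This held for 22.5% and 23.6% of all tested genes. The reverse held for 1 factor in total RNA and 0 on polysomes. Cycs, the somatic cytochrome c that feeds the enzyme, was not called, at 0.44 ± 0.56 in total RNA and 0.48 ± 0.56 on polysomes, and Cyct did not pass the low-count filter. Cycs stood at only 1.40 to 3.78 CPM and 28.5% of its 50-base runs were also found in other annotated genes, so its counts are uncertain too. The 3 mitochondrially encoded subunits had no line among the deposited counts under the names mt-Co1, mt-Co2 and mt-Co3, so they were not analysed.

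Most myoblast and myotube markers moved with the muscle forms. Of the 10 markers, edgeR without a block called 3 as higher in AUF1 total RNA (Ckm, Acta1 and Myh3) and 0 on polysomes. It called 0.82% and 0.281% of all genes as higher there. With the block it called 8 in each fraction (the same 3, Myog, Des, Tmem8c, Tnnt3 and Actn2), where it called 6.99% and 6.7% of all genes as higher. Of these, Tmem8c overlapped between genotypes and differed widely between replicates. It stood at 2418 and 186 CPM in AUF1 total RNA, against 370 and 47.7 CPM in WT total RNA. On polysomes it stood at 1905 and 220 CPM in AUF1 cells, against 354 and 62.4 CPM in WT cells. Myod1 was not called, at 338 and 266 CPM in AUF1 total RNA, against 197 and 273 CPM in WT total RNA. Acta1 carried much of their summed level, at 9984 to 12324 CPM in AUF1 total RNA, against 1426 to 2053 CPM in WT total RNA. Myf5, a myoblast transcription factor, had values below 0, at −0.78 ± 0.50 in total RNA and −0.50 ± 0.49 on polysomes (log2, SE, edgeR adjusted p = 0.579 and 0.785), and both AUF1 polysome libraries lay below both WT polysome libraries. The part of differentiation in the change of the 3 forms was not tested. Cox7a1 and Cox8b are also expressed in brown fat and all 3 muscle forms in heart. Brown fat markers summed to 0.0740 to 0.315 CPM in AUF1 total RNA, 0.0405 to 0.0702 in WT total RNA, 0.0737 to 0.124 in AUF1 polysomes and 0.0568 to 0.0635 in WT polysomes, with Plin1 at 0 in all 8 libraries and Ucp1 at 0 in 6. Cardiac markers summed to 26.7 to 29.2 CPM in AUF1 total RNA, 14.5 to 15.03 in WT total RNA, 18.3 to 29.3 in AUF1 polysomes and 23.2 to 26.6 in WT polysomes, most of it Nkx2-5. With the block 1 of the 3 tested cardiac markers was called, Myh6, at 3.16 ± 0.79 (SE, adjusted p = 0.0303) in total RNA. The block called 6.99% of all genes as higher there.

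Of 6 fibroblast markers 5 were tested, and edgeR called 0 without the block; with it, 3 fell in AUF1 total RNA (Dcn, Pdgfra and Mfap5) and 4 in AUF1 polysomes (the same 3 and Col1a1), where the block called 6.15% and 6.33% of all genes as lower. They summed to 389 to 1520 CPM in AUF1 total RNA, 646 to 4495 in WT total RNA, 403 to 728 in AUF1 polysomes and 684 to 3156 in WT polysomes, replicate 1 being the higher in each group. Their part in the spread of Cox6a1 and Cox4i1 between replicates was not tested. WT polysome replicate 1 stood apart in holding Myl7 at 7.24 CPM and Lum at 3.21 CPM, where no other library exceeded 0.0702 and 0.0635 CPM. It also held Nppa at 0.653 CPM and Tbx20 at 0.256 CPM, where no other library exceeded 0.081 and 0.105 CPM. Among WT libraries it was the highest for Actn2 (5.11 CPM, against 1.23 to 1.38) and Myh6 (2.90 CPM, against 0.243 to 1.23). The cardiac markers Nppb and Nkx2-5 were not highest in it. Levels of Cox6a2, Cox7a1 and Cox8b in WT polysome replicate 1 were below those of replicate 2, as they also were in AUF1 polysomes. The bearing of these other genes' reads on the muscle forms was not tested.

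Across the 8 libraries the muscle forms varied together, with Pearson's r of log2 CPM of 0.98 between Cox6a2 and Cox8b, 0.98 between Cox6a2 and Cox7a1 and 0.97 between Cox7a1 and Cox8b. With their own partners the r was −0.11 for Cox6a2 and Cox6a1, 0.75 for Cox7a1 and Cox7a2 and 0.75 for Cox8b and Cox8a. The 8 points share the genotypes, fractions and replicate numbers, so these values are descriptions. Among the 9661 genes whose log2 CPM averaged 3 or more, those most like Cox6a2 were Myl6b (0.996), BC051019 (0.996), Tnni2 (0.995), Myog (0.995) and Tnnc1 (0.993). They include a myosin light chain, 2 troponin subunits and a myogenic transcription factor. Those most like Cox7a2 were Ndufb2 (0.988), a subunit of complex I, Ubl7 (0.982), Mrps23 (0.98), a mitochondrial ribosomal protein, Bin3 (0.977) and Atp5sl (0.976). Those most like Cox8a were Nans (0.981), Hspbp1 (0.98), Sssca1 (0.979), Esrra (0.979), an oestrogen-related receptor, and Nop9 (0.975). Those most like Cox4i1 were Itga7 (0.987), Acad10 (0.982), Atp2a2 (0.981) and Wfs1 (0.981), and those most like Cox6a1 were Men1 (0.975), Mob3a (0.969), Cspg4 (0.962) and Lmf2 (0.961). Cox7a1 and Cox8b were below that level and were not ranked.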

How the data were processed

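Total RNA and heavy polysome RNA of C2C12 cells were read from 1 deposited table of raw counts per gene symbol, with 8 libraries in 4 groups. Per the labels' protocols, 500 ng RNA entered NEBNext Ultra libraries after Qiagen RNeasy clean-up. The submitters' processing notes name cutadapt, Trimmomatic, Bowtie, STAR, SAMtools and mm10 without versions, and the sources used here do not name the counter, its strand setting or its annotation. Libraries labelled High were taken as heavy polysomes from the study's design text. Titles number the replicates 1 and 2, while the descriptions call the second Rep3. In the deposited counts, 5 summary lines were left out (reads with no feature were 6.04% to 7.23% and ambiguous reads 0.254% to 0.389% of all counts), and 27 names had turned into dates.

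Counts were tested with edgeR 4.0.16 (R 4.3.3; TMM, filterByExpr, which left 13167 genes, quasi-likelihood test, two-sided), with 1 coefficient for each of the 4 groups. P-values were adjusted by Benjamini-Hochberg over all tested genes, with a threshold of 0.05. The test was checked on simulated data. Alternatives were the replicate number as a block, DESeq2 1.42.0, DESeq2's size factors in edgeR, no low-count filter, and each library left out. Same-numbered libraries deviated together (r of 0.62 to 0.81 between groups over 13167 genes), but the labels do not say what a number shares and there are only 2, so the block was an alternative. Pair ratios were compared by exact permutation. No 2 libraries were duplicates. Shares and floors (3 counts) cover counting error only.

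The genes and the lists around them were chosen with earlier results of these data known. The text names all 8 isoform genes, list genes that were called or, where none was, up to 4 with the smallest p, and for each isoform gene above the level minimum the 5 genes of highest correlation, of which 1 for Cox4i1 and 1 for Cox6a1 are not reported here. Complex IV subunit and cytochrome c genes that did not pass the low-count filter are also named. The assembly factor Pet117 and the brown fat markers Cidea, Adipoq and Elovl3 did not pass it and are named only here. Beyond this rule, Myf5, Myod1, Myl7, Lum, Nppa, Nppb, Tbx20, Nkx2-5, Plin1 and Ucp1 were named after their values were seen.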

Additional observations from a re-analysis of the deposited data

How the results depend on the processing

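The number of isoform genes called in total RNA was 1 in edgeR without a block, 3 with the replicate number as a block, 3 with DESeq2 and 0 with DESeq2's size factors in edgeR; on polysomes it was 0, against 3 with the block, 3 with DESeq2 and 1 without the low-count filter. With 1 library left out, without or with the block, it ranged from 0 to 5 in total RNA and from 0 to 3 on polysomes; fits left with a lone library assume that it varies like the others. Over all genes, 134 were called in total RNA (1730 with the block, 885 with DESeq2, 0 with DESeq2's size factors, 166 without the filter, 0 to 2975 with a library left out) and 46 on polysomes (1716, 856, 0 and 94, and 0 to 3011). With a library left out, called genes numbered 0 to 1133 for loading in AUF1 cells, 0 to 70 in WT cells and 0 to 11 for the interaction. The causes were not tested.

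The log2 changes of the muscle forms kept their sign throughout: with a library left out, they were 2.75 to 3.96 (Cox8b), 2.44 to 3.14 (Cox6a2) and 1.64 to 2.36 (Cox7a1) in total RNA, and 2.50 to 3.35, 1.92 to 3.16 and 1.63 to 2.37 on polysomes. Those of the pair ratios were 2.91 to 3.05 for subunit 8, 1.74 to 3.69 for 6A and 1.37 to 1.88 for 7A in total RNA, and 2.53 to 2.95, 1.95 to 3.62 and 1.38 to 1.86 on polysomes. The block left the ratio differences as they were, since each number holds 1 AUF1 and 1 WT library, and transcript length cancels in them. The block turned the sign of 2 loadings, to −0.043 for Cox6a2 in AUF1 cells and 0.033 for Cox6a1 in WT cells.

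With a library left out, the ranges that crossed 0 were, for AUF1 against WT in total RNA, −0.90 to 0.85 (Cox6a1), −0.015 to 0.76 (Cox7a2), −0.041 to 0.79 (Cox8a) and −0.084 to 1.23 (Cox4i1), and on polysomes −0.71 to 0.41 (Cox6a1) and −0.055 to 0.42 (Cox8a). The ratio of Cox4i2 to Cox4i1 ranged from −2.26 to 0.87 in total RNA and from −1.93 to 1.07 on polysomes. For the interaction they were −0.81 to 0.33 (Cox6a2), −1.004 to 0.68 (Cox6a1), −0.42 to 0.38 (Cox7a1), −0.39 to 0.34 (Cox7a2), −1.06 to 0.080 (Cox8b), −0.61 to 0.14 (Cox8a) and −0.64 to 0.61 (Cox4i1). For loading in AUF1 cells they were −0.57 to 0.50 (Cox6a2), −1.13 to 0.59 (Cox6a1), −0.51 to 0.12 (Cox7a1), −0.43 to 0.30 (Cox7a2), −0.94 to 0.22 (Cox8b), −0.50 to 0.29 (Cox8a) and −0.81 to 0.47 (Cox4i1). For loading in WT cells they were −0.30 to 0.58 (Cox6a2), −0.58 to 0.55 (Cox6a1), −0.62 to 0.23 (Cox7a1), −0.40 to 0.32 (Cox7a2), −0.30 to 0.50 (Cox8b), −0.12 to 0.36 (Cox8a) and −0.46 to 0.20 (Cox4i1). Depth limits Cox4i2, at 0 to 4 counts.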
